A study of Homo sapiens with 9 samples.

Results

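The report covers interleukins and related cytokines, their receptor chains, the Janus kinases (JAKs), the STAT transcription factors, and the feedback and target genes of that pathway. They were chosen by name from a list of 46 gene symbols, of which 43 have a row among the 16586 genes of the deposited table. IL6, IL18R1 and STAT4 are not analysed here. Of the 43, 33 passed a filter on low values (3 or more libraries with at least 1 CPM, the gene's count scaled to the library's total) and were tested: 4 cytokines, 14 receptor chains, 4 JAKs, 4 STATs, and 7 feedback and target genes. The measurement was RNA-seq of Z138, an established line derived from mantle cell lymphoma, a cancer of B cells. Its 3 groups were the SOX11 rescue (labelled as the knockout with SOX11 returned), the SOX11 knockout, and wild-type Z138 with neither change, with 3 libraries each and 1 library of each group in each of 3 labelled batches. All were grown in the same medium, and no cytokine or inhibitor is named in the labels. The sources used here give neither the site of the edit, nor the promoter of the returned SOX11, nor whether each edited line is 1 clone, so clone and SOX11 cannot be told apart. Nothing says that replicates were separate cultures, so the p-values measure only the spread between these libraries, which may be technical.

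Most of these interleukins act by pulling receptor chains together at the cell surface. Those chains have no enzyme activity of their own and carry JAKs, which then phosphorylate STATs, and the STATs enter the nucleus and switch on genes. Among those genes are SOCS family members and CISH, which damp the same pathway, and the survival kinases PIM1 and PIM2. Some members work in other ways: TGF-beta receptors are serine/threonine kinases themselves and signal through SMAD proteins, the interleukin 18 receptor signals through MYD88, the interleukin 17 receptor through its own adaptor, and IL16 binds CD4. In B cell lymphomas, IL10 and STAT3 are known for supporting growth and survival.

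Estimated depth was 30800000 to 40800000 reads per library. SOX11 itself averaged 13127 ± 627 normalized counts in the rescue, 1033 ± 262 in the knockout and 3549 ± 474 in wild type (SD, n = 3 each), so the groups followed their labels, and the rescue carried more SOX11 RNA than wild type. Since the edited part of the gene is not known here, reads from an unedited part would not test the edit. The B cell markers were all present: 10 of 10 were tested, and their summed CPM was 1702 to 1951 in the rescue, 1579 to 1733 in the knockout and 1682 to 1926 in wild type. Of 11 T and NK cell markers, 9 were in the table and 5 were tested, with sums of 16.2 to 18.4 CPM in the rescue, 17.8 to 21.5 CPM in the knockout and 12.5 to 15.2 CPM in wild type. Of 10 myeloid markers, 5 were in the table and none was tested, with sums of 1.37 to 1.88 CPM in the rescue, 1.32 to 1.40 CPM in the knockout and 0.437 to 0.723 CPM in wild type. Of 9 markers of stroma and endothelium, 5 were in the table and 2 were tested, with sums of 25.6 to 31.8 CPM in the rescue, 39.9 to 47.3 CPM in the knockout and 34.6 to 43.3 CPM in wild type. No marker in the table was at 0 in all 9 libraries. The T and NK cell sum and the stroma and endothelium sum were highest in the knockout, as were IL10 and several receptor and kinase transcripts below. The stroma and endothelium sums of the rescue lay below those of both other groups without overlap. The T and NK cell sums and the myeloid sums of both edited groups lay above those of wild type without overlap. The part of these markers in those results was not tested.

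Promoter sequences are shown for 4 genes, to let the reader see the letters that STATs and SOX proteins are known to recognise near members discussed below. RefSeq windows (GRCh38.p14) of 300 bases, from 250 before to 50 after a start, were matched for 29 of the 33 tested genes, with 51 windows. The 4 patterns searched on both strands were TTCNNNGAA and TTCNNNNGAA for STATs, and ACAAAG and ACAATG for SOX proteins. Matches of different patterns may share bases at their ends. The search was made after the expression results were known, and the 4 windows were chosen with both matches and calls in view. In capitals are TTCNNNGAA in CISH (chr3:50611725-50612024, minus strand) and in IL15RA (chr10:5977997-5978296, minus strand), and ACAATG or ACAAAG in IL23A (chr12:56338634-56338933, plus strand) and in TGFBR1 (chr9:99104863-99105162, plus strand).
CISH: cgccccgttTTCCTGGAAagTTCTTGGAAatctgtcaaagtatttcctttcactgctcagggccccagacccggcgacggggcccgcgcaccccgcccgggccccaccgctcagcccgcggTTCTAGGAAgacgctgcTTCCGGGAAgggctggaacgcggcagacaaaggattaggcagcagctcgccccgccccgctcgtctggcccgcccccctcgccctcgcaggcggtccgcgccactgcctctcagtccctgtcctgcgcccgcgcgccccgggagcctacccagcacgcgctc
IL15RA: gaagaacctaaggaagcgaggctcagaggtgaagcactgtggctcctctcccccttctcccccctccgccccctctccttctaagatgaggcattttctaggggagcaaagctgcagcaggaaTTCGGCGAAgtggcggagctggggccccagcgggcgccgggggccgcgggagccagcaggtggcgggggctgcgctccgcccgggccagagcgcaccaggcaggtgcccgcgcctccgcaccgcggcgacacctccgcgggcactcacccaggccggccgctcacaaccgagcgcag
IL23A: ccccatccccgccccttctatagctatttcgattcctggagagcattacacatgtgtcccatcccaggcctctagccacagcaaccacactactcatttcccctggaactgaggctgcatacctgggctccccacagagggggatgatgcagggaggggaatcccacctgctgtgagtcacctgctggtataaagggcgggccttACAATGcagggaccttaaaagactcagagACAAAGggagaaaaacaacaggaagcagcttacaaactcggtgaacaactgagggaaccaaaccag
TGFBR1: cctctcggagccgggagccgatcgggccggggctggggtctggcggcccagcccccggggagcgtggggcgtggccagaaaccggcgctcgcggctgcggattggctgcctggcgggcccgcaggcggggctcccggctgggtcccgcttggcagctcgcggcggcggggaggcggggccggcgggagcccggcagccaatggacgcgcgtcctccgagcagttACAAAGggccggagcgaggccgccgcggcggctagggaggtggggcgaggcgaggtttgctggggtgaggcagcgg
CISH held 4 matches to TTCNNNGAA, which begin 241, 230, 129 and 112 bases before the start. IL15RA held 1, which begins 127 bases before it. In the IL23A window ACAATG begins 45 and ACAAAG 16 bases before the start, and in the TGFBR1 window ACAAAG begins 26 bases before it.

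TTCNNNGAA was in 7.66% of all 35116 windows and in 3 of the 51 windows of these genes (CISH, IL10RB and IL15RA). TTCNNNNGAA was in 6.44% of all windows and in 5 of the 51 (4 genes, IL10, IL16, STAT5A and TGFBR1). ACAAAG was in 16.1% of all windows and in 11 of the 51. These came from 8 genes: CISH, IL10, IL15RA, IL21R, IL23A, SOCS3, TGFBR1 and TGFBR2. ACAATG was in 10.8% of all windows and in 1 of the 51, that of IL23A. A match describes letters and not a site of binding.

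Across the family, 13 of the 33 tested genes passed the test in at least 1 of 3 comparisons and 20 in none (limma on the deposited log2 values, Benjamini-Hochberg adjustment over all 11542 genes tested, adjusted p under 0.05). In the knockout against wild type, 5 were higher and 3 lower, 24.2% of the tested members, where 12.7% of all genes were called (5.36% up and 7.37% down). In the rescue against the knockout, 5 were higher and 8 lower, 39.4%, where 22.1% of all genes were called (11.5% up and 10.7% down). In the rescue against wild type, 3 were higher, 9.09%, where 4.07% of all genes were called (2.3% higher). None was lower there by limma at the adjusted threshold, where 1.78% of all genes were called lower. At an unadjusted p under 0.05 (limma), 3 of the 33 were lower, as were 913 of all 11542 genes. With the replicate block described next, 2 of the 33 were lower, as were 437 of all 11542 genes. The 3 comparisons share libraries, so their values stand side by side and are not independent of each other.

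The labelled batch is the replicate number and pairs the libraries. With it as a block in the fit, the knockout against wild type had 7 members higher and 6 lower, with 21.5% of all genes called. The rescue against the knockout then had 6 higher and 10 lower with 31.2% of all genes called, and the rescue against wild type 4 higher and 2 lower with 8.06% called. The groups did not overlap for 14 of the 33 in the knockout against wild type (29.5% of all genes), for 19 in the rescue against the knockout (41.8%) and for 8 in the rescue against wild type (20.8%). The median absolute log2 difference of the members was 0.14 against 0.08 over all genes in the first comparison, 0.16 against 0.10 in the second, and 0.06 against 0.06 in the third. IL7R reached a CPM of 1 only in the rescue, and IL15RA in the 3 knockout libraries and 1 rescue library, so these genes had to differ to be tested, and no count here is support for the family as a whole.

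**Figure D1:**
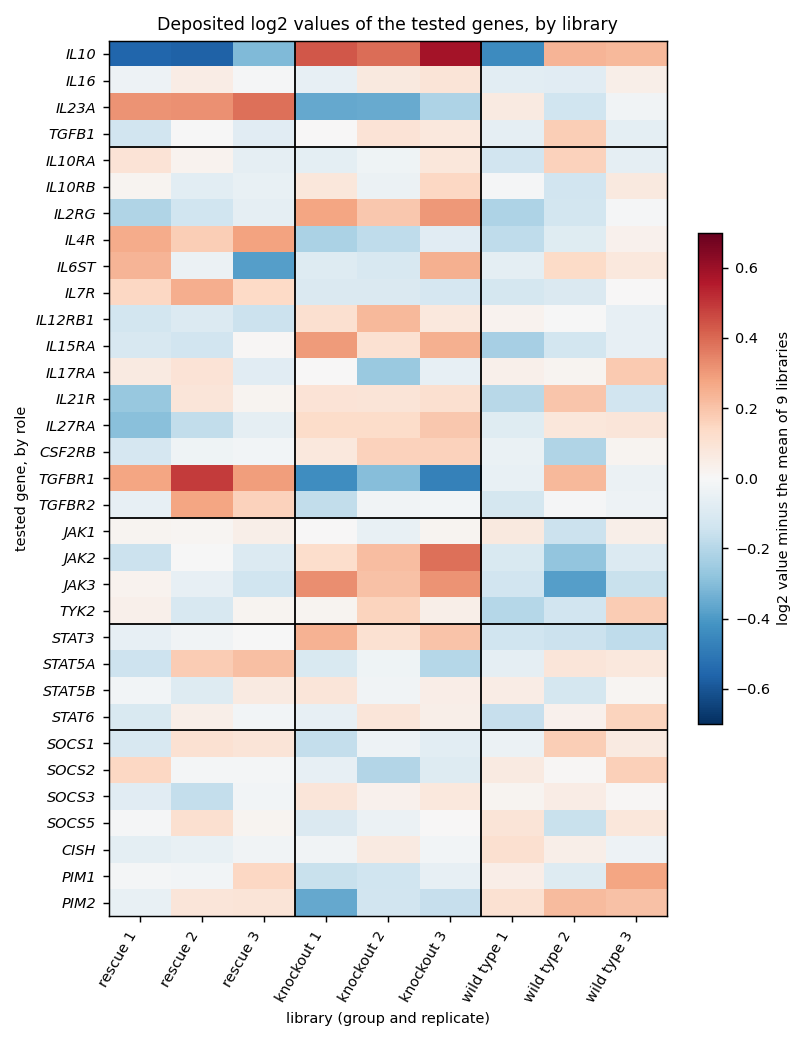
Deposited log2 values of the 33 tested genes (rows, by role: cytokines, receptors, JAKs, STATs, feedback and target genes) in the 9 libraries (columns: rescue, knockout, wild type, replicates 1 to 3), each minus the gene's mean over the 9 libraries. IL10, IL23A and TGFBR1 had the strongest colours, and wild-type replicate 1 had less IL10 than the other wild-type libraries.

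IL10, a cytokine that B cells make and respond to (ENSG00000136634.7; chromosome 1, 206767602 to 206772494, minus strand, GRCh38, GENCODE release 29), had 581, 576 and 793 normalized counts in the rescue libraries, 1738, 1671 and 2000 in the knockout and 675, 1434 and 1423 in wild type. Every knockout library was above every other, while wild-type replicate 1 lay among the rescue libraries. IL10 fell in the rescue against the knockout, with a mean 2.77-fold lower (log2 difference -0.95 ± 0.15 SE, limma adjusted p = 0.00121). The knockout mean was 1.53-fold that of wild type, which did not pass (log2 difference 0.46 ± 0.15 SE, adjusted p = 0.0751), whereas the replicate block gave an adjusted p of 0.0162 and leaving out wild-type replicate 2 one of 0.042. Without wild-type replicate 1, the low library, that log2 difference was 0.24 (adjusted p = 0.133), and without batch 1 it was 0.26 (adjusted p = 0.26). The rescue mean was 1.81-fold lower than wild type, also without passing (log2 difference -0.48, adjusted p = 0.126). The block brought it to an adjusted p of 0.0267, leaving out batch 1 to 0.0262, and leaving out wild-type replicate 1 to 0.00208 with a log2 difference of -0.71. Fewer cells making a transcript and less of it per cell cannot be told apart in these bulk libraries, here or for the genes that follow.

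RefSeq places the start of IL19, a relative of IL10, inside IL10 on the opposite strand, whereas GENCODE release 29 keeps them apart. Since which library had a stranded kit is not given, their reads may not be separate. IL19 averaged 75.9 ± 34.8 normalized counts in the rescue, 199 ± 32.9 in the knockout and 111 ± 40 in wild type (SD, n = 3 each), and fell in the rescue against the knockout (log2 difference -0.39, limma adjusted p = 0.00764). It was the 1 called gene of 4 tested among other interleukins and related ligands (43 listed, 14 in the table), in a comparison that called 22.1% of all genes. The knockout against wild type gave no call among the 4 with the fit used. At an unadjusted p under 0.05 (limma), 1 was higher and 2 lower, where 1503 of all 11542 genes were higher and 1565 lower. With the replicate block 1 was higher and 1 lower, where 21.5% of all genes were called.

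IL23A, the subunit that sets interleukin 23 apart from interleukin 12, moved opposite to IL10 in the rescue against the knockout (ENSG00000110944.9; chromosome 12, 56334174 to 56340410, plus strand). It had 780, 784 and 851 normalized counts in the rescue, 302, 303 and 379 in the knockout and 567, 428 and 505 in wild type. The 3 groups did not overlap, with the rescue highest and the knockout lowest. It was 2.45-fold higher in the rescue than in the knockout (log2 difference 0.65 ± 0.065 SE, limma adjusted p = 3.9e-05) and 1.61-fold higher in the rescue than in wild type (0.37 ± 0.065 SE, adjusted p = 0.00756). In the knockout it was 1.52-fold lower than in wild type (-0.28 ± 0.065 SE, adjusted p = 0.0168). That last call was lost without knockout replicate 1 (adjusted p = 0.0726), knockout replicate 2 (0.0577) or wild-type replicate 1 (0.0645). The promoter window printed above holds both SOX patterns. Windows of IL10, which moved the opposite way in the rescue against the knockout, also hold a SOX pattern. Whether SOX11 binds at either gene was not tested.

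The other tested cytokines did not pass in any comparison. TGFB1, the main TGF-beta ligand of lymphocytes, had 2159 to 2424 normalized counts in the rescue, 2439 to 2638 in the knockout and 2285 to 2827 in wild type. IL16, a T cell attractant made by lymphoid cells, had 906 to 999 in the rescue, 883 to 1039 in the knockout and 863 to 988 in wild type. IL7, IL15, IL18, IL32 and TGFB3 were left out by the filter. Of these, IL32, a cytokine of activated lymphocytes, had 9.07, 9.84 and 13.8 normalized counts in the rescue, 15.3, 14.9 and 22.6 in the knockout and 1.33, 7.19 and 4.24 in wild type, and the 3 groups did not overlap. Tested without the filter, it was higher in the knockout than in wild type (log2 difference 0.16, limma adjusted p = 0.0292), at 22.6 normalized counts or fewer in each library. The rescue then did not pass against the knockout (limma adjusted p = 0.349) or against wild type (0.297).

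**Figure D2:**
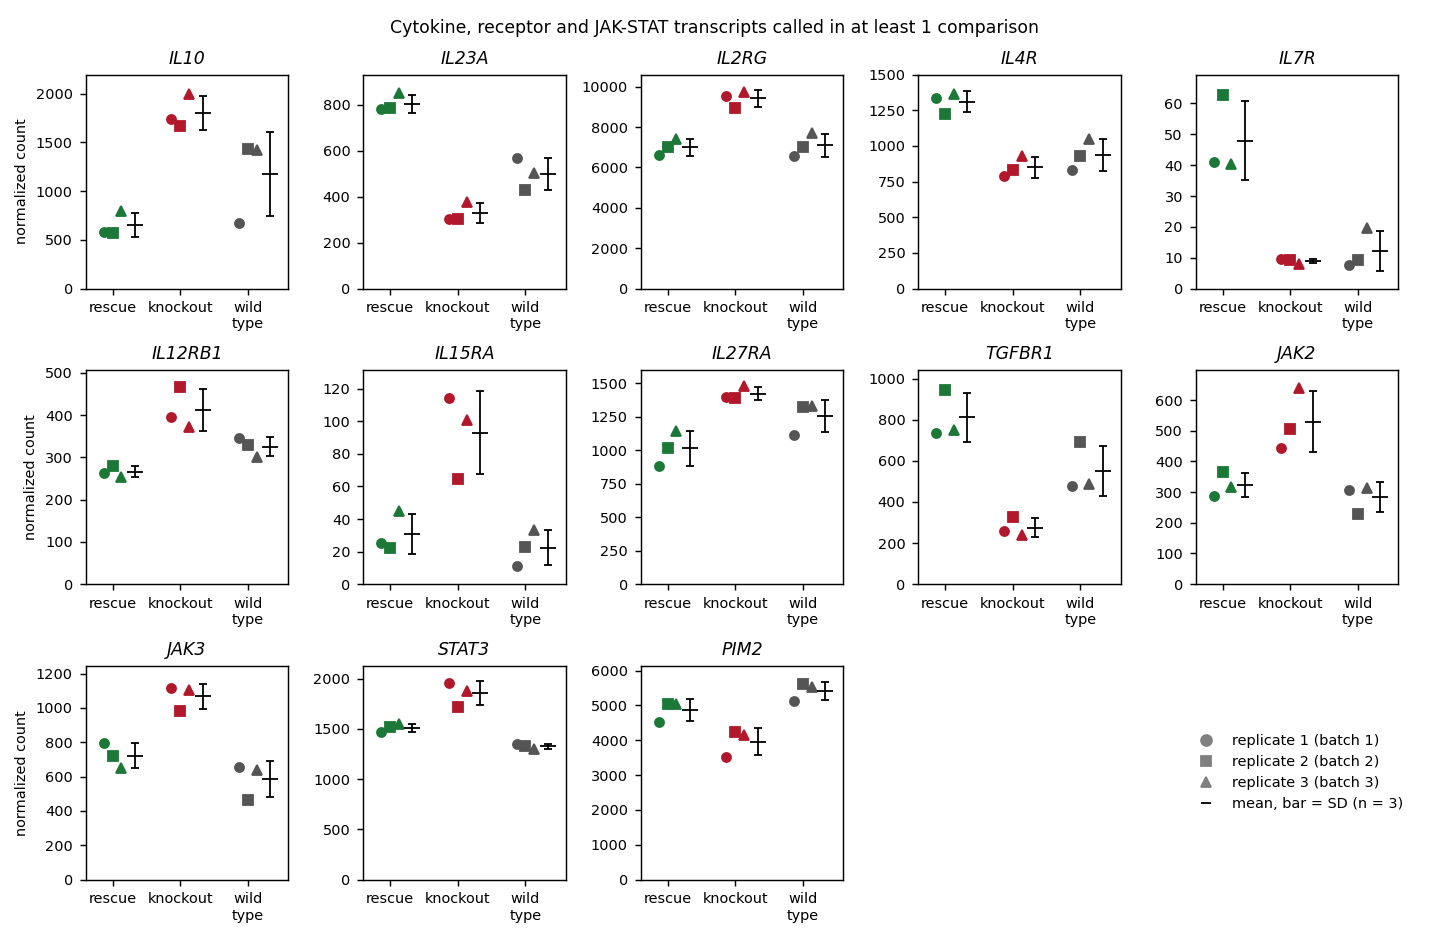
Normalized counts (y axis, from 0) of the 13 genes called in at least 1 comparison, for the rescue, the knockout and wild type; symbols give the replicate (batch), and the dash and bar the mean and SD of n = 3. IL10, IL2RG, IL12RB1, IL15RA, IL27RA, JAK2, JAK3 and STAT3 had their 3 highest values in the knockout, and IL23A, TGFBR1 and PIM2 their 3 lowest.

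Among receptors, IL2RG, the common gamma chain shared by several interleukin receptors and the docking site of JAK3, was the most abundant per length: 140 CPM per kilobase in the rescue, 187 in the knockout and 141 in wild type (CPM over the median length of the gene's coding transcripts, an approximate level). Its normalized counts (ENSG00000147168.13; chromosome X, 71107404 to 71112108, minus strand) were 6596, 6992 and 7406 in the rescue, 9560, 8965 and 9755 in the knockout and 6569, 7026 and 7700 in wild type. The knockout libraries stood above all others, and rescue and wild type overlapped. IL2RG fell in the rescue against the knockout, 1.35-fold lower (log2 difference -0.39 ± 0.063 SE, limma adjusted p = 0.00111). It rose in the knockout against wild type, 1.33-fold (0.38 ± 0.063 SE, adjusted p = 0.00236). Its exons overlap those of AL590764.2 on the same strand, between which reads could be divided.

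The chains that pair with the gamma chain did not move together. IL7R, the receptor of the survival factor interleukin 7, had 40.9, 62.6 and 40.3 normalized counts in the rescue, 9.43, 9.35 and 8.05 in the knockout and 7.58, 9.31 and 19.8 in wild type. The rescue libraries were apart from all others, and knockout and wild type overlapped. IL7R reached a CPM of 1 in the rescue alone, so it had to differ to be tested. It was 5.36-fold higher in the rescue than in the knockout (log2 difference 0.28 ± 0.048 SE, limma adjusted p = 0.00164) and 3.92-fold higher than in wild type (0.25 ± 0.048 SE, adjusted p = 0.0135). The call against wild type was lost without rescue replicate 2 (adjusted p = 0.0638) or wild-type replicate 1 (0.0514). The log2 scale understates the change of such a low gene, and with quantile normalization the difference from the knockout was 0.19 (adjusted p = 0.0171).

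IL4R, the chain that binds interleukin 4 and activates STAT6, had 1339, 1227 and 1368 normalized counts in the rescue, 789, 829 and 930 in the knockout and 832, 927 and 1051 in wild type. The rescue libraries were the 3 highest, and knockout and wild type overlapped. It was 1.54-fold higher in the rescue than in the knockout (log2 difference 0.40 ± 0.066 SE, limma adjusted p = 0.00131) and 1.40-fold higher than in wild type (0.32 ± 0.066 SE, adjusted p = 0.0207). The call against wild type was lost without rescue replicate 1 (adjusted p = 0.0703), rescue replicate 3 (0.0987), wild-type replicate 1 (0.0739) or wild-type replicate 2 (0.0524). AC106739.1 overlaps IL4R on the opposite strand, so some of these reads may not be its own. The same holds for TGFB1, IL16, IL21R, IL6ST, JAK1, STAT6, CISH and SOCS2, whose exons also overlap genes on the opposite strand.

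IL15RA, which binds and presents interleukin 15, had 25.0, 22.0 and 44.7 normalized counts in the rescue, 114, 64.6 and 101 in the knockout and 11.4, 22.6 and 33.0 in wild type. The knockout libraries were the 3 highest, and rescue and wild type overlapped. It was 3.05-fold lower in the rescue than in the knockout (log2 difference -0.30 ± 0.065 SE, limma adjusted p = 0.00726) and 4.17-fold higher in the knockout than in wild type (0.36 ± 0.065 SE, adjusted p = 0.00365). It reached a CPM of 1 mainly in the knockout, so it had to differ to be tested. IL15RA is the gene whose window above holds 1 STAT pattern, and AL137186.2 overlaps its exons on the same strand. IL21R, the receptor of interleukin 21, had 673 to 1017 normalized counts in the rescue, 1020 to 1051 in the knockout and 739 to 1144 in wild type, and passed in no comparison. IL2RA, IL2RB, IL9R and IL13RA1 were left out by the filter.

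IL12RB1 and IL27RA, chains of the interleukin 12, 23 and 27 receptors, both fell in the rescue against the knockout. IL12RB1, shared by the receptors of interleukins 12 and 23, had 264, 280 and 254 normalized counts in the rescue, 396, 467 and 371 in the knockout and 345, 330 and 301 in wild type, 3 groups that did not overlap. It was 1.55-fold lower in the rescue than in the knockout (log2 difference -0.26 ± 0.054 SE, limma adjusted p = 0.00552). IL12RB1 did not pass in the knockout against wild type (adjusted p = 0.107) or in the rescue against wild type (0.32). Its partner chains IL12RB2 and IL23R had at most 14.0 and 5.68 normalized counts in any library (looked up after the other values were seen). IL27RA had 885, 1015 and 1143 in the rescue, 1394, 1393 and 1478 in the knockout and 1117, 1321 and 1330 in wild type. The knockout libraries were the 3 highest, and rescue and wild type overlapped. It was 1.40-fold lower in the rescue than in the knockout (-0.32 ± 0.069 SE, adjusted p = 0.00647), and with the replicate block also lower than in wild type (-0.20, adjusted p = 0.0352 against 0.162 without it).

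Of the other interleukin chains, CSF2RB, the shared beta chain of the interleukin 3 and interleukin 5 receptors, had 664, 742 and 752 normalized counts in the rescue, 841, 929 and 928 in the knockout and 728, 589 and 784 in wild type. The knockout libraries were the 3 highest. It did not pass in the rescue against the knockout (log2 difference -0.19, limma adjusted p = 0.0638) or in the knockout against wild type (0.21, adjusted p = 0.0581), but did in both with the replicate block (adjusted p = 0.0344 and 0.0287, in that order), with median centring (0.0442 and 0.04999) and with quantile normalization (0.0389 and 0.0421). The rescue against the knockout also passed in a fit of those groups alone (0.0334) and without wild-type replicate 2 (0.0255), at the same log2 difference. The knockout against wild type passed without wild-type replicate 3 (0.0384), while without batch 2 its log2 difference was 0.13 (adjusted p = 0.25). IL10RA and IL10RB, the receptor chains for IL10, IL17RA, the interleukin 17 receptor chain, and IL6ST, the signalling chain of the interleukin 6 family, passed in no comparison. IL6ST varied between replicates, with 1143, 837 and 544 in the rescue, 790, 770 and 1159 in the knockout and 809, 1020 and 954 in wild type.

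TGFBR1, the signalling chain of the TGF-beta receptor, had larger folds than the other tested receptors in both comparisons with the knockout, apart from the low IL7R and IL15RA (ENSG00000106799.13; chromosome 9, 99104038 to 99154192, plus strand). It had 735, 947 and 751 normalized counts in the rescue, 259, 326 and 241 in the knockout and 478, 693 and 486 in wild type. The 3 groups did not overlap, with the rescue highest and the knockout lowest. It was 2.95-fold higher in the rescue than in the knockout (log2 difference 0.75 ± 0.088 SE, limma adjusted p = 0.000115) and 2.01-fold lower in the knockout than in wild type (-0.45 ± 0.088 SE, adjusted p = 0.00589). The rescue was 1.47-fold above wild type (0.31 ± 0.088 SE), which did not pass (adjusted p = 0.0877). It passed with the replicate block (adjusted p = 0.00328), without wild-type replicate 2 (0.022) and without batch 2 (0.0232).

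TGFBR2, the ligand-binding partner of TGFBR1, did not pass with the fit used, though the replicate block called it higher in the rescue than in the knockout. It had 891, 1279 and 1134 normalized counts in the rescue, 783, 928 and 934 in the knockout and 829, 941 and 917 in wild type. The adjusted p of the rescue against the knockout was 0.117 (log2 difference 0.20) and 0.0179 with the block, and 0.021 without rescue replicate 1. Without rescue replicate 2 the log2 difference was 0.12 (adjusted p = 0.36). Of the SMAD pathway genes downstream, 21 of 27 listed were tested. In the knockout against wild type, 1 was higher and 6 lower (median log2 difference -0.16, limma), 33.3% of the list where 12.7% of all genes were called. With the replicate block 1 was higher and 10 lower, where 21.5% of all genes were called. In the rescue against the knockout, 5 were higher and 1 lower (median 0.16), 28.6% of the list where 22.1% of all genes were called, a share near that of all genes. With the block 9 were higher and 2 lower, where 31.2% of all genes were called.

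SMAD1, which carries signals of the related BMP receptors, had 81.5, 90.2 and 65.0 normalized counts in the rescue, 0.586, 1.40 and 3.02 in the knockout and 363, 322 and 254 in wild type. Each knockout library lay under its 3-read floor, which was 2.57 to 3.40 normalized counts over the 9 libraries, so no fold is given. SMAD1 passed the filter only through the rescue and wild type. It was lower in the knockout than in wild type (log2 difference -1.16, limma adjusted p = 5.15e-07) and higher in the rescue than in the knockout (0.55, adjusted p = 5.34e-05), and it stayed lower in the rescue than in wild type (-0.61, adjusted p = 0.000136). The antisense SMAD1-AS1 overlaps it. SMAD7, an inhibitor of TGF-beta signalling, averaged 650 ± 17 in the rescue, 394 ± 33.3 in the knockout and 569 ± 63.8 in wild type (SD, n = 3 each), and was called in both comparisons with the knockout (adjusted p = 0.00103 for the rescue against it and 0.0127 for it against wild type). SMAD6, SMAD4 and TGIF1 were also among the called genes.

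**Figure D3:**
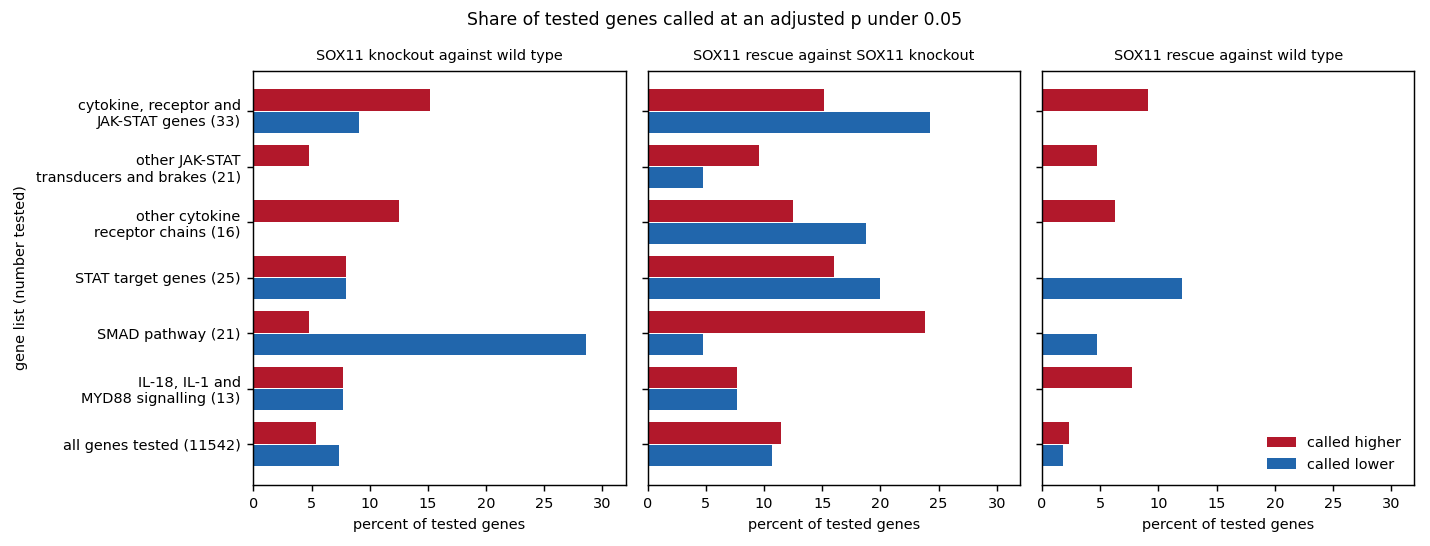
Percent of tested genes called higher (red) and lower (blue) in each comparison, x axis, for the interleukin, receptor and JAK-STAT genes, 5 related gene lists and all genes tested, with the number tested beside each name. In the SMAD pathway list, 6 of 21 were lower and 1 higher in the knockout against wild type, where 7.37% of all genes were lower and 5.36% higher. In the rescue against the knockout, 5 of 21 were higher and 1 lower, where 11.5% of all genes were higher and 10.7% lower.

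Among the Janus kinases, JAK2 and JAK3 rose in the knockout and JAK1 and TYK2 did not pass. Per length, JAK1 was the most abundant, at 34.9 CPM per kilobase in the rescue, 33.7 in the knockout and 33.7 in wild type, and TYK2 followed at 18.1 in the rescue, 19.4 in the knockout and 17.6 in wild type. JAK3 stood at 5.19 in the rescue, 7.59 in the knockout and 4.18 in wild type, and JAK2 at 1.75 in the rescue, 2.84 in the knockout and 1.53 in wild type. JAK3, which docks on the common gamma chain, had 797, 721 and 651 normalized counts in the rescue, 1117, 983 and 1104 in the knockout and 655, 467 and 639 in wild type. Its knockout libraries were the 3 highest, and rescue and wild type overlapped. It rose 1.82-fold in the knockout against wild type (log2 difference 0.51 ± 0.075 SE, limma adjusted p = 0.00106) and was 1.48-fold lower in the rescue than in the knockout (-0.34 ± 0.075 SE, adjusted p = 0.00814).

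JAK2, which serves receptors of interleukins 12 and 23 and of growth factors such as those sharing CSF2RB, had 288, 365 and 316 normalized counts in the rescue, 443, 505 and 638 in the knockout and 308, 228 and 315 in wild type. The knockout libraries again were the 3 highest, with rescue and wild type overlapping. It rose 1.86-fold in the knockout against wild type (log2 difference 0.40 ± 0.077 SE, limma adjusted p = 0.00527) and was 1.64-fold lower in the rescue than in the knockout (-0.32 ± 0.077 SE, adjusted p = 0.0116). JAK1, used by the gamma chain, IL10 and interleukin 6 family receptors, had 6129, 6093 and 6218 in the rescue, 6040, 5807 and 6132 in the knockout and 6359, 5359 and 6234 in wild type. TYK2 had 2454, 2156 and 2425 in the rescue, 2422, 2732 and 2476 in the knockout and 1991, 2110 and 2783 in wild type. Without wild-type replicate 3, its highest wild-type library, TYK2 passed in the knockout against wild type (log2 difference 0.24, adjusted p = 0.0474, against 0.12 and 0.424 with it). Without wild-type replicate 1 the log2 difference was 0.05 (adjusted p = 0.788), and it was 0.08 both without wild-type replicate 2 (0.655) and without knockout replicate 2 (0.671). Without a batch it lay between 0.04 (batch 2, adjusted p = 0.849) and 0.25 (batch 3, 0.142).

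STAT3, which acts downstream of IL10, interleukin 6 and interleukin 21, was the one of 4 tested STATs to be called (ENSG00000168610.14; chromosome 17, 42313324 to 42388568, minus strand). It had 1466, 1518 and 1544 normalized counts in the rescue, 1959, 1723 and 1882 in the knockout and 1350, 1334 and 1299 in wild type. The 3 groups did not overlap, and the knockout was highest, but the rescue against wild type did not pass (log2 difference 0.13, limma adjusted p = 0.239). STAT3 rose 1.40-fold in the knockout against wild type (log2 difference 0.34 ± 0.051 SE, limma adjusted p = 0.00114) and was 1.23-fold lower in the rescue than in the knockout (-0.21 ± 0.051 SE, adjusted p = 0.0124). The second call was lost without knockout replicate 1 (limma adjusted p = 0.0629). In both comparisons 25% of the tested STATs were called. Over all genes the shares were 12.7% (knockout against wild type) and 22.1% (rescue against knockout).

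STAT6, the STAT of the interleukin 4 receptor, was the most abundant STAT per length, at 91.0 CPM per kilobase in the rescue, 93.6 in the knockout and 93.1 in wild type. Its normalized counts were 8733, 9758 and 9337 in the rescue, 9078, 10091 and 9752 in the knockout and 8380, 9706 and 10651 in wild type, and the groups overlapped. STAT5B, a STAT of the gamma chain receptors, had 2752, 2575 and 2946 in the rescue, 3005, 2729 and 2904 in the knockout and 2920, 2502 and 2824 in wild type. STAT5A, its close relative, was far lower, at 70.5, 168 and 182 in the rescue, 80.5, 100 and 58.7 in the knockout and 91.4, 136 and 133 in wild type. Rescue replicate 1 stood below the other rescue libraries for STAT5A; without it, STAT5A was higher in the rescue than in the knockout (log2 difference 0.31, limma adjusted p = 0.0114, against 0.19 and 0.151 with it), as it was without batch 1 (0.31, 0.0319). Without rescue replicate 3 the difference was 0.13 (adjusted p = 0.423), and without batch 3 it was 0.08 (0.706). STAT5A and STAT5B are near-identical copies in part, so reads shared between them are uncertain.

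Of the feedback and target genes, 1 of 7 was called, PIM2, a survival kinase that STATs are known to induce. It was called in both comparisons with the knockout, 14.3% of these genes each time, where 12.7% of all genes (knockout against wild type) and 22.1% (rescue against knockout) were called. PIM2 (ENSG00000102096.9; chromosome X, 48913182 to 48919024, minus strand) had 4512, 5042 and 5052 normalized counts in the rescue, 3515, 4232 and 4139 in the knockout and 5114, 5614 and 5527 in wild type. The knockout libraries were the 3 lowest and the wild-type libraries the 3 highest, but the rescue against wild type did not pass (log2 difference -0.14, limma adjusted p = 0.364). PIM2 was 1.37-fold lower in the knockout than in wild type (log2 difference -0.39 ± 0.069 SE, limma adjusted p = 0.00299) and 1.23-fold higher in the rescue than in the knockout (0.26 ± 0.069 SE, adjusted p = 0.0208). The second call was lost without knockout replicate 1 (adjusted p = 0.0848), rescue replicate 2 (0.0728) or rescue replicate 3 (0.0782).

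The SOCS genes, brakes on JAKs and receptors, did not pass with the fit used. SOCS1 had 526, 702 and 687 normalized counts in the rescue, 489, 585 and 555 in the knockout and 580, 761 and 666 in wild type, with groups that overlapped. SOCS2 had 822, 677 and 681 in the rescue, 640, 529 and 616 in the knockout and 746, 695 and 843 in wild type, where the knockout libraries were the 3 lowest. SOCS3, a feedback inhibitor of interleukin 6 family signals, had 183, 152 and 209 in the rescue, 256, 229 and 249 in the knockout and 224, 239 and 221 in wild type, where the rescue libraries were the 3 lowest.

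With the replicate block, SOCS1 (log2 difference -0.16, limma adjusted p = 0.0397 against 0.217 without it), SOCS2 (-0.20, 0.029 against 0.0829) and PIM1 (-0.19, 0.0333 against 0.18) were lower in the knockout than in wild type. PIM1 is a kinase of the same family as PIM2 and also passed there without wild-type replicate 2 (adjusted p = 0.0476), while without wild-type replicate 3 its log2 difference was -0.09 (adjusted p = 0.463) and without batch 3 -0.13 (0.405). For SOCS1 it was -0.10 without wild-type replicate 2 (adjusted p = 0.452). SOCS3 was lower in the rescue than in the knockout with the block (-0.15, 0.0404 against 0.0549), with median centring (0.0374), with quantile normalization (0.0179) and without rescue replicate 3 (0.0483). CISH, whose window holds the 4 STAT patterns, had 108, 112 and 121 normalized counts in the rescue, 120, 150 and 122 in the knockout and 167, 142 and 117 in wild type. CISH passed in no comparison and under no alternative. SOCS5, another brake, had 508 to 721 over all libraries and also did not pass.

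**Figure D4:**
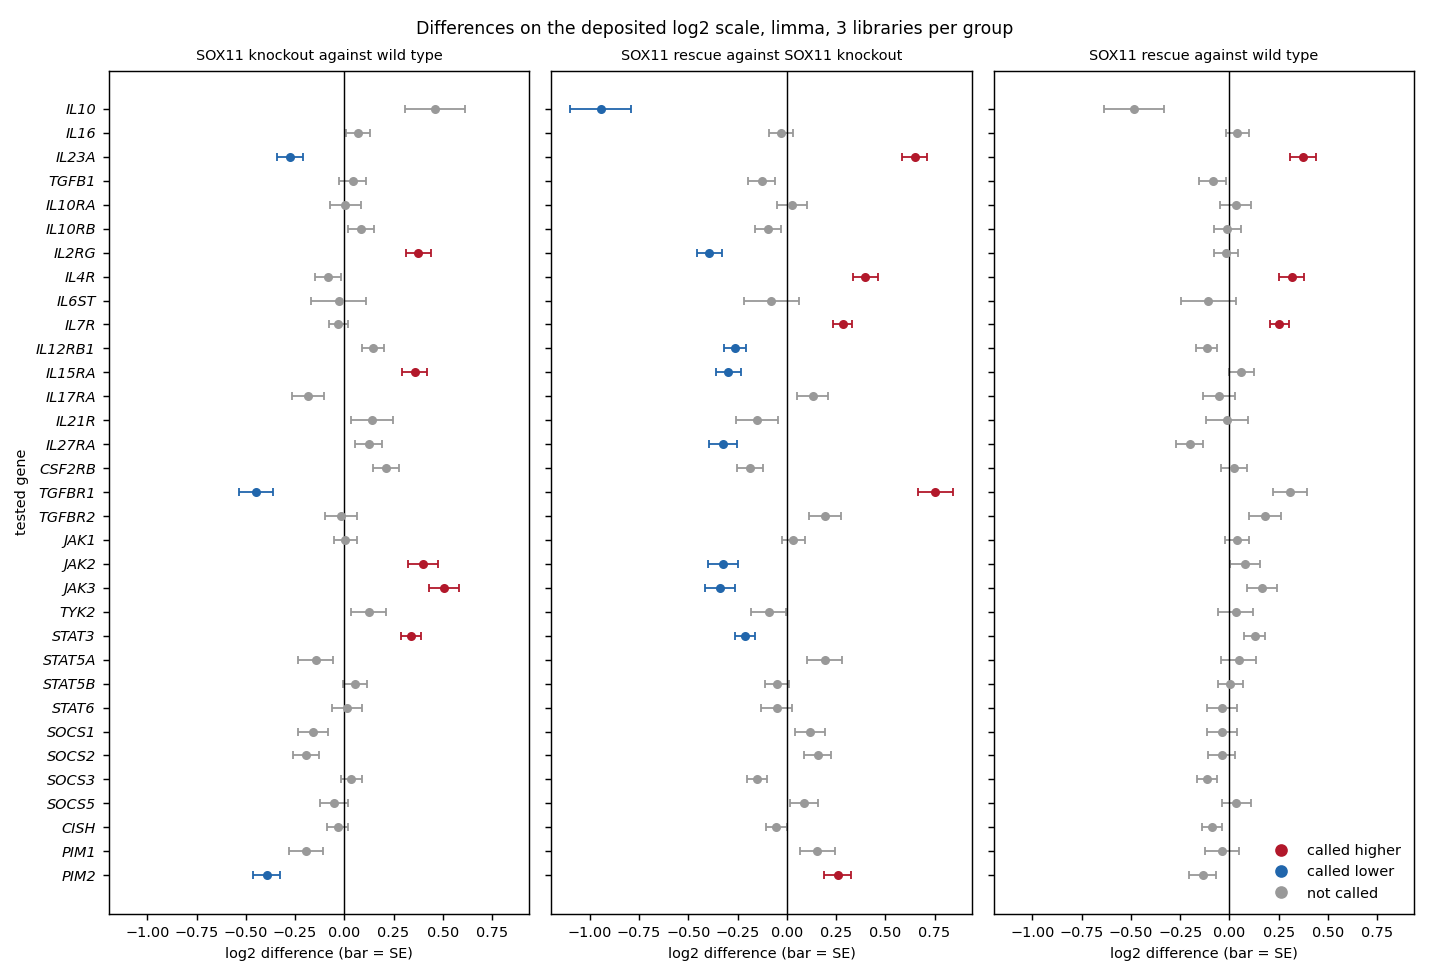
Log2 difference (x axis, bar = SE) of the 33 tested genes in the knockout against wild type, the rescue against the knockout and the rescue against wild type, on the deposited scale; red is called higher, blue called lower and grey not called. In the rescue against wild type only IL23A, IL4R and IL7R are coloured, each higher in the rescue.

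Leaving out a whole batch, which leaves 6 libraries, ended many of these calls. Fewer libraries weaken the test for every gene, and the calls lost over all genes were not counted. Whether the batch or the smaller number of libraries lay behind a loss was not tested. Without batch 2 no call was lost in the knockout against wild type or in the rescue against the knockout. Without batch 1, 4 calls of the knockout against wild type were lost (IL23A, IL2RG, IL15RA and TGFBR1; limma adjusted p 0.0571 to 0.25), and without batch 3, 5 were (IL23A, TGFBR1, JAK2, STAT3 and PIM2; 0.0548 to 0.0846). In the rescue against the knockout, 7 were lost without batch 1 (IL12RB1, IL15RA, IL27RA, JAK2, JAK3, STAT3 and PIM2; 0.0523 to 0.187) and 5 without batch 3 (IL12RB1, JAK2, JAK3, STAT3 and PIM2; 0.0524 to 0.148). All 3 calls of the rescue against wild type (IL23A, IL4R and IL7R) were lost without any 1 of the batches (0.0526 to 0.259). JAK3 in the knockout against wild type, and IL10, IL23A, IL4R, IL7R, TGFBR1 and IL2RG in the rescue against the knockout, passed whichever batch was left out. Of these, IL7R reached a CPM of 1 only in the rescue and had to differ to be tested, so its calls are no support. For every call of the 13 genes the groups compared did not overlap, so each batch had to differ in that direction. The direction within batches is therefore no further support.

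Other genes of the pathway, from lists of known members, are given by list. Of 21 other signal transducers and brakes, 1 was higher in the knockout against wild type, 2 were higher and 1 lower in the rescue against the knockout, and 1 was higher in the rescue against wild type. These are 4.76%, 14.3% and 4.76% of the list, where 12.7%, 22.1% and 4.07% of all genes were called, so the shares are near or below those of all genes. PTPRC (CD45), a phosphatase that restrains JAKs, averaged 7068 ± 497 normalized counts in the rescue, 7710 ± 179 in the knockout and 5091 ± 663 in wild type (SD, n = 3 each). Both edited groups were above wild type (limma adjusted p = 0.01 for the rescue and 0.00077 for the knockout). GRB2, an adaptor, was lower in the rescue than in the knockout (log2 difference -0.28, adjusted p = 0.000922), and USP18, a brake on interferon receptors, was 1.45-fold higher (adjusted p = 0.0189), as was SOCS7, 1.31-fold (adjusted p = 0.0419).

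Of 42 other cytokine receptor chains, 38 were in the table and 16 were tested. In the knockout against wild type 2 were higher, in the rescue against the knockout 2 were higher and 3 lower, and in the rescue against wild type 1 was higher. The shares of 12.5%, 31.2% and 6.25% are near the 12.7%, 22.1% and 4.07% of all genes called in these comparisons. IFNAR1, a chain of the type I interferon receptor, averaged 2401 ± 98.4 normalized counts in the rescue, 3322 ± 157 in the knockout and 2440 ± 207 in wild type (SD, n = 3 each). It was lower in the rescue than in the knockout (limma adjusted p = 0.000981) and higher in the knockout than in wild type (adjusted p = 0.00208). Its partner IFNAR2 was 1.36-fold lower in the rescue than in the knockout (adjusted p = 0.00348). IL1RAP, the shared chain of interleukin 1 family receptors, averaged 358 ± 57.5 in the rescue, 294 ± 33.6 in the knockout and 194 ± 19.4 in wild type, and was higher than wild type in both (adjusted p = 0.0108 for the rescue and 0.039 for the knockout). BMPR1A, a BMP receptor, was 1.42-fold higher in the rescue than in the knockout (adjusted p = 0.00429), and BMPR2 was lower there (log2 difference -0.19, adjusted p = 0.0266).

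Of 28 genes known as STAT targets in lymphocytes, 25 were tested. In the knockout against wild type 2 were higher and 2 lower (5 and 5 with the replicate block). In the rescue against the knockout 4 were higher and 5 lower (7 and 5 with the block), and in the rescue against wild type 3 were lower (1 higher and 5 lower with the block). Without the block these are 16.0%, 36.0% and 12.0% of the list, where 12.7%, 22.1% and 4.07% of all genes were called, and with it 21.5%, 31.2% and 8.06% of all genes were. FCER2 (CD23), a known target of STAT6, averaged 382 ± 39.7 normalized counts in the rescue, 884 ± 21.7 in the knockout and 544 ± 107 in wild type (SD, n = 3 each). It was 2.31-fold lower in the rescue than in the knockout (limma adjusted p = 0.000106) and 1.63-fold higher in the knockout than in wild type (adjusted p = 0.00404). BATF, a lymphocyte transcription factor, averaged 177 ± 16.4 in the rescue, 235 ± 9.64 in the knockout and 167 ± 8.52 in wild type, and rose in the knockout against wild type (adjusted p = 0.0359). HIF1A, the hypoxia factor, went the other way, at 3645 ± 191 in the rescue, 2487 ± 181 in the knockout and 3129 ± 257 in wild type (adjusted p = 0.000565 for the rescue against the knockout and 0.0208 for the knockout against wild type). IRF4 was also lower in the knockout than in wild type (log2 difference -0.33, limma adjusted p = 0.0462). MYC was 1.44-fold lower in the rescue than in the knockout (adjusted p = 0.000135) and 1.28-fold lower than in wild type (adjusted p = 0.00699), and XBP1, a plasma cell factor, was 1.52-fold lower in the rescue than in the knockout (adjusted p = 0.000122) and 1.31-fold lower than in wild type (adjusted p = 0.00986).

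Of 17 genes of interleukin 1 and 18 processing and MYD88 signalling, 13 were tested. The knockout against wild type and the rescue against the knockout each had 1 higher and 1 lower, and the rescue against wild type had 1 higher. These are 15.4%, 15.4% and 7.69% of the list, where 12.7%, 22.1% and 4.07% of all genes were called. MYD88, the adaptor of the interleukin 1 and toll-like receptors, averaged 2551 ± 54.4 normalized counts in the rescue, 1781 ± 65.4 in the knockout and 2472 ± 219 in wild type (SD, n = 3 each). It was higher in the rescue than in the knockout (limma adjusted p = 0.000584) and lower in the knockout than in wild type (adjusted p = 0.00178). CASP4, an inflammatory caspase, averaged 105 ± 21.6 in the rescue, 74.3 ± 10.7 in the knockout and 16.5 ± 0.551 in wild type, and was higher than wild type in both edited groups (adjusted p = 0.000352 for the rescue and 0.000995 for the knockout). Wild type lay under a CPM of 1, so CASP4 passed the filter only through the edited groups, where it was high. IRAK1, a kinase that MYD88 recruits, was lower in the rescue than in the knockout (log2 difference -0.28, adjusted p = 0.0108).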

How the data were processed

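RNA-seq was made from Z138 cells in 3 groups of 3 libraries. Per the labels' protocols, polyadenylated RNA was read on an Illumina NextSeq, with libraries from either a TruSeq RNA kit or a stranded ribosomal-depletion kit, single-end or paired. The sources used here do not say which library had which. The submitters' processing notes name FastQC 0.11.9, Trimmomatic 0.40, kallisto 0.46.1, R 4.3.2, DESeq2 1.24.0 and GRCh38.p13.

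The values deposited by the authors are log2 values. The table is named as log CPM, but all 9 libraries share the lowest value 8.59849, which a variance-stabilizing transform would give. That transform was inverted, using the constant 388 (2 raised to that minimum), which returned normalized counts, and CPM was each gene's share of a library's total. Low values (under 8 normalized counts, a limit chosen after the data were seen) of genes with 1 transcript were whole multiples of a step of 0.857 to 1.13 within 0.05 of a step in 87.8% to 98.9% of cases, and over all genes in 48.8% to 53.6%. The step is taken as the worth of 1 read, and depth is the total over the step. This depth is an estimate, and the 3-read floor covers counting error only.

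limma 3.58.1 (R 4.3.3) was fitted to the deposited log2 values of all 9 libraries (1 mean for each group, trended prior variance), for the 11542 genes that reached a CPM of 1 in 3 or more libraries (5044 left out, 1 gene without a symbol). Adjusted p-values are Benjamini-Hochberg over those genes, with a threshold of 0.05. Folds are ratios of mean normalized counts, since log2 differences understate low genes. Called genes, IL10, the JAKs and the STATs are given by library, and up to 4 called genes of each list per comparison with the smallest adjusted p could be named. The test was also run on simulated counts, with the same variability setting for every gene and no batch effect. Libraries paired by batch, as here, were not simulated, so no result here rests on that run. Members and lists were chosen with earlier results of these data known.

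The replicate number is the labelled batch, which the labels cross with the groups, so it pairs libraries; deviations of same-numbered libraries correlated at 0.187 to 0.51 over 9 pairs. The fit without the block is the one reported. The alternatives were that block, no filter and a CPM minimum of 4, log2(CPM + 1) and log2(CPM + 0.25), centring on medians, quantile normalization, constant prior variance, a fit of just 2 groups at a time, and the removal of each library or batch. Positions are from GENCODE release 29 (GRCh38) and promoters from RefSeq (GRCh38.p14). Figures used matplotlib 3.10.9.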

Additional observations from a re-analysis of the deposited data

How the results depend on the processing

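Under the 21 alternatives no called difference changed direction. Of the 99 differences of tested genes, 37 were called in at least 1 setting, and their 772 values under the alternatives kept the direction and the side of the threshold in 698 cases, lost the call in 43 and gained one in 31. The other 62 differences were called in no setting, and 30 of them changed sign in at least 1. With the replicate block, the genes lower in the knockout against wild type numbered 6 in place of 3, and those lower in the rescue against wild type 2 in place of 0; the block ended no call. Leaving out 1 library or 1 batch gave 3 to 7 higher and 0 to 4 lower in the knockout against wild type, 4 to 7 higher and 2 to 9 lower in the rescue against the knockout, and 0 to 3 higher and 0 to 1 lower in the rescue against wild type. With a CPM minimum of 4, which left 29 genes and removed IL7R and IL15RA, the counts were 4 higher and 3 lower, 4 and 7, and 2 and 0. The other counts were within 1.5 times those reported. Depth limits IL7R, IL15RA and the 10 genes left out, at most 53.4 normalized counts in any library, 4 of them with a library at 0. The cause of these changes was not tested.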
